A study of Arabidopsis thaliana with 18 samples.

Results

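The receptor dependence of the response to abscisic acid (ABA) was described in Arabidopsis thaliana as the ABA response of a receptor mutant set against that of the wild type, gene by gene. Of the 6740 genes in the authors' deposited table, 4597 reached at least 5 FPKM (a fragment count corrected for the length of the transcript and for the size of the library) in at least 1 of the 4 groups compared and entered the comparison. The groups were 9-day-old Col-0 wild-type seedlings and seedlings of the pyl duodecuple line, a Col-0 mutant written pyl112458 379101112 in the series title after the PYR/PYL receptor genes it carries lesions in, each mock treated (control) or given 100 µM ABA for 24 h on filter paper. Each group held 3 samples, 12 in all, but the deposited table gives 1 value per group, so no value has a replicate error, no test could be run and the depth is unknown. A further pair of groups, given 300 mM mannitol, was used only for values set beside those of ABA. The table holds only genes that the authors called changed in at least 1 comparison of a treatment with its control, so its shares are not shares of the genome.

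PYR/PYL proteins are the receptors of ABA, the hormone that plants raise in drought and in maturing seeds. A receptor that has bound ABA blocks the clade A protein phosphatases 2C (PP2Cs), which otherwise hold SnRK2 kinases inactive, and the freed kinases phosphorylate ABF-type transcription factors. These factors bind the ABA-responsive element (ABRE), whose core is ACGTG, upstream of genes for dehydration tolerance, and genes of growth, cytokinin response and photosynthesis are known to be lowered by the hormone.

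For 4565 of the 4597 genes, the 250 bases before the annotated start were read from the TAIR10.1 genome of RefSeq, whose chromosomes are those of TAIR10, the build named in the submitters' processing notes. The promoters below were picked after their motif counts had been seen, as examples from the classes described further on. They are not typical of these classes: 2 or more copies of the core lie in 14.7% of lost-rise promoters and 8% of kept-rise promoters. They belong to lost rises of a clade A PP2C (HAI2) and of a seed protein (ATEM6), a pair of kept rises (LEA7 and the dehydrin RAB18), a lost fall (DR4) and a reversed response (GSTU25). Capitals mark each ACGTG core on either strand, with overlapping matches joined.
HAI2 (AT1G07430, lost rise, chr1:2282829-2283078, minus strand): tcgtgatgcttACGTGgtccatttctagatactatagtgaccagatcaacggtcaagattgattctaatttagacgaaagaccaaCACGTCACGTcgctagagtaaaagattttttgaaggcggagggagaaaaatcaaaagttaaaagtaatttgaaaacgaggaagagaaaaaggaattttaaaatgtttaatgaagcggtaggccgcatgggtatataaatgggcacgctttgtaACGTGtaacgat
ATEM6 (AT2G40170, lost rise, chr2:16780369-16780618, minus strand): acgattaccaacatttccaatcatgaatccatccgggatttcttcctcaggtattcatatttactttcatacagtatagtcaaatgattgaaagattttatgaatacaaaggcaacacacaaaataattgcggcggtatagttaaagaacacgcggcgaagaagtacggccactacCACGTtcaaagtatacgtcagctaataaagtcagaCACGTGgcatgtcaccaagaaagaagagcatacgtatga
LEA7 (AT1G52690, kept rise, chr1:19619474-19619723, plus strand): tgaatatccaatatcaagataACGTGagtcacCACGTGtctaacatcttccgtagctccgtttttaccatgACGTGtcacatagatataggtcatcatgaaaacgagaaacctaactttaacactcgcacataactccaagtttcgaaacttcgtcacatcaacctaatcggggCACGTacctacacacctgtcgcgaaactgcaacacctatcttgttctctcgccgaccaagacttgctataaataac
RAB18 (AT5G66400, kept rise, chr5:26519448-26519697, minus strand): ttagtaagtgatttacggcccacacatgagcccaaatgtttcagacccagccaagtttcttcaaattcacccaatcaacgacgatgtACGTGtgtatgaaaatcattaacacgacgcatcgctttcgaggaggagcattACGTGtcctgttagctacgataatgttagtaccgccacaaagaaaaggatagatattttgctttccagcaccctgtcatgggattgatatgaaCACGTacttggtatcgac
DR4 (AT1G73330, lost fall, chr1:27569824-27570073, minus strand): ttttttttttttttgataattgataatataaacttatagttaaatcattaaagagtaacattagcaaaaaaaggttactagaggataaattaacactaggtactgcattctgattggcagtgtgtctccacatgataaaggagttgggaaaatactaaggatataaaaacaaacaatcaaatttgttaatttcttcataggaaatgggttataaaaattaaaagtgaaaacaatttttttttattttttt
GSTU25 (AT1G17180, fall turned to rise, chr1:5871774-5872023, plus strand): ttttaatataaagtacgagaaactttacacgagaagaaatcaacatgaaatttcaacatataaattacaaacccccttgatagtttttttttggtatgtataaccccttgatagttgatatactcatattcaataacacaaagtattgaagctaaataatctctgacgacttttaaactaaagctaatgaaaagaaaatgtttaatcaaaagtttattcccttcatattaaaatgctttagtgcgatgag
The core occurs 4 times in the HAI2 window, nearest at 8 bases before the start, 2 times in that of ATEM6, 4 times in that of LEA7 and 3 times in that of RAB18. No copy of these letters lies in the windows of DR4 and GSTU25. Among the promoters of all 27443 protein-coding genes of the reference, 22.9% hold the core, so a single match is common.

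Of the receptor genes 5 entered the comparison, 4 of them among those named in the mutant. PYR1 (AT4G17870) stood at 173 FPKM in control wild type, 111 FPKM in ABA-treated wild type, 181 FPKM in control mutants and 163 FPKM in ABA-treated mutants. PYL4 (AT2G38310) fell from 183 to 37.0 FPKM in the wild type, against 112 to 131 FPKM in the mutant. PYL5 (AT5G05440) stood at 90.6 and 26.0 FPKM in the wild type and at 13.1 and 17.5 FPKM in the mutant, and PYL8 (AT5G53160) at 225 and 97.4 FPKM in the wild type and at 73.0 and 72.3 FPKM in the mutant. Control mutants thus had less PYL4, PYL5 and PYL8 transcript than control wild type and about the same PYR1, and an FPKM value over the whole gene does not test a lesion within it. PYL6 (AT2G40330), which the name of the mutant does not hold, fell from 16.1 to 0.416 FPKM in the wild type and was higher throughout in the mutant, at 58.1 and 56.9 FPKM. By the classes defined next, PYL4, PYL5, PYL6 and PYL8 were lost falls.

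Responses were measured as log2 of (FPKM + 1) under ABA over (FPKM + 1) in the control of the same genotype. A gene was counted as a rise or a fall in a genotype at a response of 1 or more in size there, that is 2-fold. In the wild type 889 genes rose and 996 fell, which is 19.3% and 21.7% of the comparison. In the duodecuple line 110 rose and 66 fell, 2.39% and 1.44% of the same genes. The response difference, duodecuple minus wild type, was -1 or below for 742 genes (16.1%) and 1 or above for 795 (17.3%). Over all 4597 genes the median response was -0.17 for the wild type and 0.03 for the duodecuple line. Scaling the 4 groups to a median ratio of 1 raised the wild-type ABA group by 0.19 on the log2 scale and turned the 889 rises and 996 falls into 1070 and 786, so the balance of rises and falls depends on the scaling. In whole seedlings, fewer cells of a type and less RNA per cell cannot be told apart.

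The share of the response that the mutant retained, its log2 response divided by that of the wild type, separated the wild-type responses into classes. A response was called lost where the share was under 0.25, reduced from 0.25 to under 0.5, and kept at 0.5 or more. The 2-fold limit applied to the wild type only, so a kept response need not be 2-fold in the mutant. The median mutant response was 0.97 for kept rises and -0.89 for kept falls. Of the 889 wild-type rises, 596 (67.04%) were lost, 215 (24.2%) reduced, 75 (8.44%) kept and 3 reversed into a fall. Of the 996 falls, 694 (69.7%) were lost, 233 (23.4%) reduced, 63 (6.33%) kept and 6 reversed into a rise. The median retained share was 0.149 for rises and 0.143 for falls. A further 18 genes rose and 25 fell in the duodecuple line alone, and 2669 responded in neither genotype. Between classes the limits cut a continuum: a share of 0.249 (AT2G40530) counted as lost and one of 0.2502 (AT1G30760) as reduced, and a share of 0.497 (NRAMP3) as reduced and one of 0.504 (AT5G57345) as kept.

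**Figure D1:**
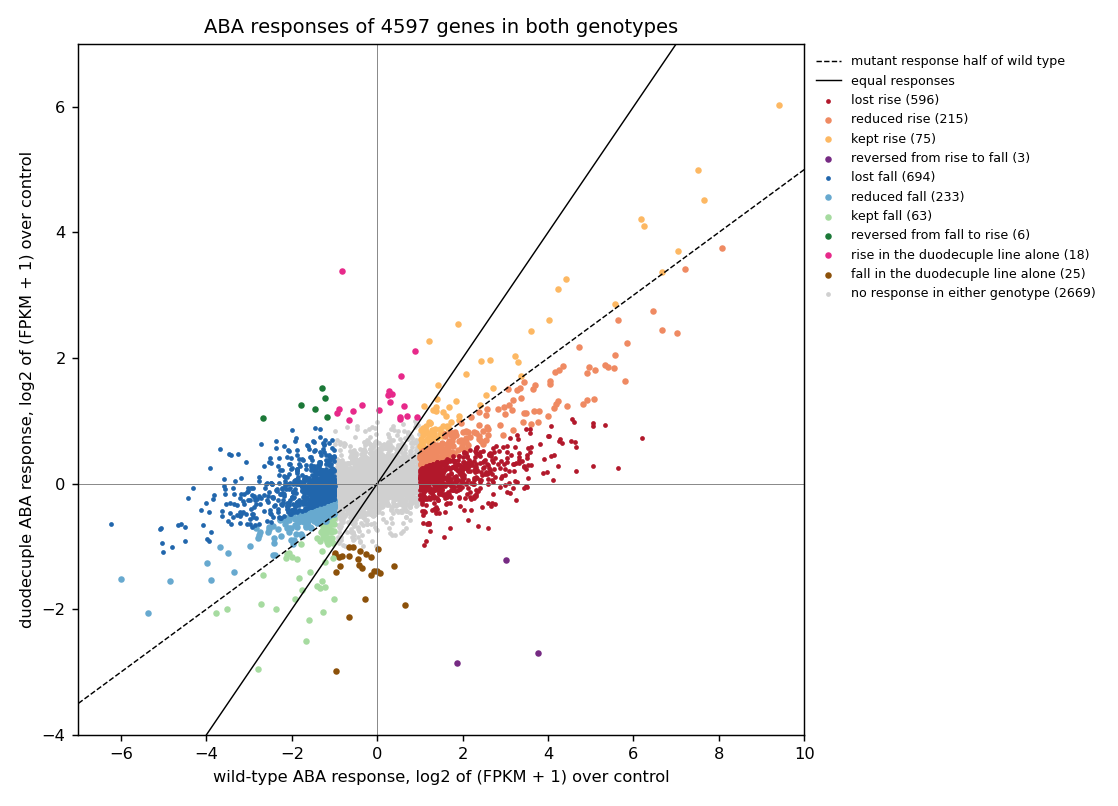
Each point is 1 of 4597 genes, with its ABA response in the wild type on the x axis and in the duodecuple line on the y axis, both as log2 of (FPKM + 1) over control. Most wild-type responses, 596 lost rises and 694 lost falls, lie along the horizontal line of no mutant response. The highest points to the right, such as LTP4 and LEA7, lie above the dashed line of a mutant response 0.5 times the wild-type one. They lie below the line of equal responses.

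The mutant responses that remained mostly kept their sign. Of the 889 wild-type rises, 708 (79.6%) moved upward in the duodecuple line at any size, and 737 of the 996 falls (74.0%) moved downward. Over all genes the median mutant response was 0.03, near no change. Seen from the mutant, 86 of its 110 rises (78.2%) and 38 of its 66 falls (57.6%) were also 2-fold wild-type responses in that direction, against 19.3% and 21.7% of all genes. In summed level, the 889 wild-type rises went from 29270.4 to 117144 FPKM in the wild type and from 27064 to 33328 FPKM in the duodecuple line. The 996 falls went from 55433 to 17748 FPKM in the wild type and from 57582 to 50976 FPKM in the mutant. In the authors' deposited table, 594 of the 596 lost rises were called in the wild type and 15 in the duodecuple line, against 75 and 36 of the 75 kept rises. Over the whole comparison, the authors' deposited table calls 2.91% of genes higher and 2.02% lower under ABA in the duodecuple line, and 21.0% and 25.2% in the wild type. Of the 63 kept falls, 58 were called in the wild type and 34 in the duodecuple line in the authors' deposited table.

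In lost responses the genotypes stood apart under ABA and hardly in control seedlings. The classes were formed from the same 4 values, so the counts that follow describe them and support nothing. Of the 596 lost rises, 507 were at least 2-fold lower in the ABA-treated mutant than in the ABA-treated wild type, against 19.3% of all genes. In control seedlings 24 of them were 2-fold lower and 24 were 2-fold higher, where 3.72% and 4.22% of all genes were. Of the 694 lost falls, 565 were at least 2-fold higher in the ABA-treated mutant, against 21.6% of all genes, and 35 were higher and 25 lower in control seedlings. Kept classes showed other counts already without ABA. Of the 75 kept rises, 19 were 2-fold lower in control mutants and none was 2-fold higher, and of the 63 kept falls 20 were higher and 3 lower. The mutant control value enters both this ratio and the retained share, so a low control by itself raises the share of a rise, and its part in the kept class was not tested. Under ABA 38 of the 75 kept rises were at least 2-fold lower in the mutant: the median kept rise stood at 76.9 FPKM in the ABA-treated wild type and at 29.7 FPKM in the ABA-treated mutant.

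**Figure D2:**
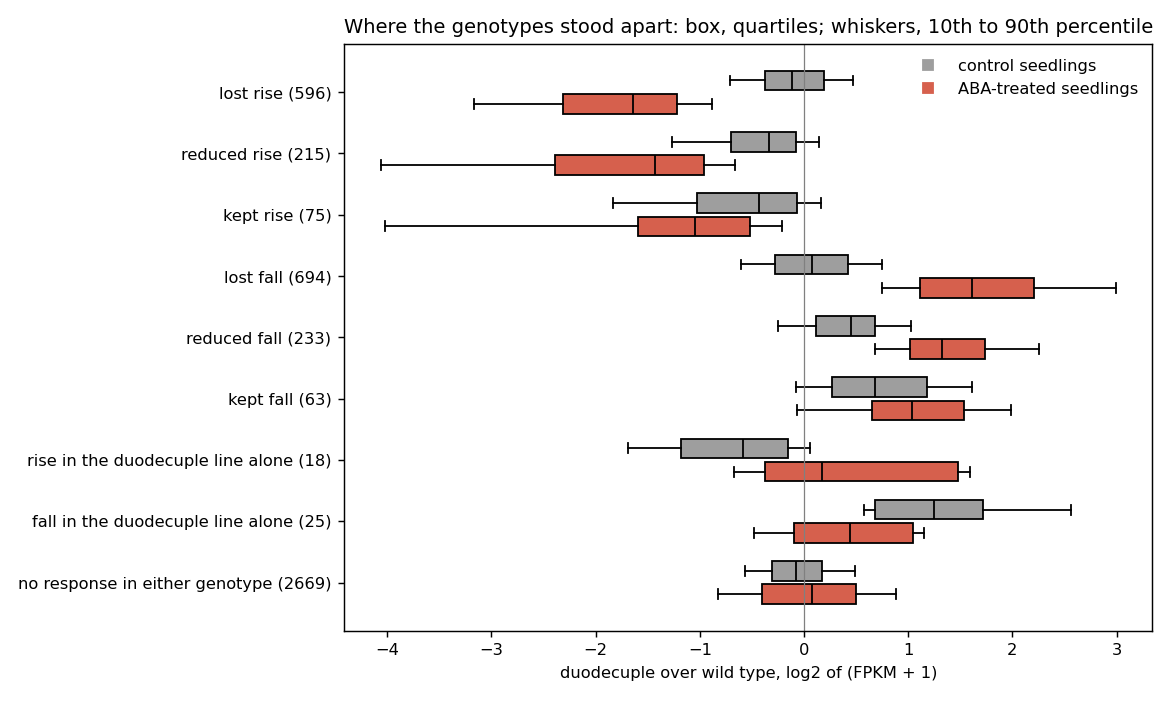
Boxes give, for each class with its gene number, the quartiles and median of duodecuple over wild type (log2 of FPKM + 1) among control seedlings (grey) and ABA-treated seedlings (red), with whiskers from the 10th to the 90th percentile of genes. The median of lost rises lies at -0.11 in control seedlings and at -1.64 under ABA, that of kept rises at -0.43 and -1.04, and that of genes falling in the duodecuple line alone at 1.25 and 0.44.

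Negative regulators of the pathway lost their rises in the mutant. Clade A PP2Cs, the phosphatases that ABA-bound receptors inhibit, were present with 7 members, of which 6 were lost rises, and the seventh, HAB1 (AT1G72770), had a wild-type response of 0.99, just under the limit, and a mutant response of 0.52. Over all genes 19.3% rose in the wild type, and 67.04% of those rises were lost. HAI3 (AT2G29380) rose from 0.2004 to 87.0 FPKM in the wild type, against 0.0378 to 0.718 FPKM in the duodecuple line, the largest response difference of all lost rises (-5.47). ABI2 (AT5G57050) rose from 6.53 to 48.0 FPKM in the wild type, against 2.897 to 4.79 FPKM in the mutant. For both genes the ABA-treated wild type was far above the other 3 groups. PP2CA (AT3G11410) rose from 53.2 to 238 FPKM in the wild type, against 27.6 to 36.1 FPKM in the mutant. With a pseudocount of 0.1 in place of 1 FPKM, HAI3 and HAI1 moved from lost to reduced. Both stood under 1 FPKM in control mutants, where the pseudocount weighs most. In the authors' deposited table HAI1, with 0.663 to 1.66 FPKM in the mutant, was called in the mutant as well as in the wild type.

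SnRK2 kinases, which the PP2Cs restrain, moved both ways in the wild type, with 3 rises and 2 falls among 6 members, and 4 of these 5 responses were lost and 1 was reduced. Over all genes 19.3% rose and 21.7% fell, and 67.04% of rises and 69.7% of falls were lost. SNRK2.6 (AT4G33950, OST1), the kinase of stomatal closure, rose from 30.2 to 90.5 FPKM in the wild type, against 23.5 to 30.2 FPKM in the mutant. SNRK2.7 (AT4G40010) rose from 1.80 to 9.39 FPKM in the wild type and stayed near 1.78 FPKM in the mutant, at 1.88 FPKM under ABA. SNRK2.8 (AT1G78290) went the other way, from 19.2 to 8.50 FPKM in the wild type, against 16.8 to 18.21 FPKM in the mutant. The remaining member, SNRK2.3 (AT5G66880), responded in neither genotype, with 33.9 to 42.5 FPKM in the wild type and 34.5 to 35.9 FPKM in the mutant.

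Of 8 transcription factors of the ABA response 6 were lost rises, RD26 was a reduced rise and NAC055 did not respond. By comparison, 19.3% of all genes rose in the wild type and 67.04% of those rises were lost. HB7 (AT2G46680), a homeodomain-leucine zipper factor, rose from 19.7 to 239 FPKM in the wild type, against 13.8 to 17.2 FPKM in the mutant. Its relative HB12 (AT3G61890) rose from 14.1 to 129.8 FPKM in the wild type, against 9.26 to 8.22 FPKM in the mutant, with no upward move. ABF3 (AT4G34000), an ABRE-binding bZIP factor, rose from 22.3 to 59.7 FPKM in the wild type, against 19.2 to 18.6 FPKM in the mutant. RD26 (AT4G27410), a NAC factor, retained the largest share of these 7 rises, 0.271, with 21.4 to 129.7 FPKM in the wild type and 16.3 to 26.9 FPKM in the mutant. In these 4 genes the control values of the genotypes lay within 2-fold of each other and the ABA-treated values further apart. With a pseudocount of 5 FPKM, and with rescaling, RD26 was a lost rise too. Among the lost rises, MYB102 and NAC019 were called in both genotypes in the authors' deposited table.

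Genes of ABA turnover gave 4 lost rises and 1 reduced rise among 6 members, where 19.3% of all genes rose and 67.04% of those rises were lost. CYP707A1 (AT4G19230), an ABA 8'-hydroxylase that breaks the hormone down, rose from 5.05 to 100.5 FPKM in the wild type, against 2.52 to 3.75 FPKM in the mutant. CYP707A3 (AT5G45340), of the same family, rose from 4.26 to 14.3 FPKM in the wild type and stood at 5.46 and 5.49 FPKM in the mutant. NCED3 (AT3G14440), the carotenoid-cleaving enzyme of ABA synthesis, rose from 1.46 to 5.39 FPKM in the wild type, against 0.562 to 0.813 FPKM in the mutant. Lost rises were thus found among genes of breakdown and of synthesis.

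Late embryogenesis abundant (LEA), dehydrin and related RD and COR genes, which encode hydrophilic proteins made in drying tissue, all rose in the wild type, 20 of 20 members, against 19.3% of all genes. In the duodecuple line 7 of the 20 rose. Here 11 rises were lost, 6 reduced and 3 kept, and the wild-type median response was 3.47 and the mutant one 0.59. RD22 (AT5G25610) rose from 74.3 to 684 FPKM in the wild type, against 79.4 to 75.5 FPKM in the mutant, and KIN2 (AT5G15970) from 180.1 to 1548 FPKM in the wild type, against 203 to 234 FPKM in the mutant. ATEM6, an EM protein of maturing seeds, rose from 1.25 to 55.4 FPKM in the wild type, against 0.309 to 0.956 FPKM in the mutant. RD22 and KIN2 hardly moved in the mutant, and ATEM6 stayed under 1 FPKM there.

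The kept members of this group were LEA7, RAB18 and COR15A. LEA7 rose from 5.52 to 1305 FPKM in the wild type and from 0.216 to 26.9 FPKM in the mutant, log2 responses of 7.65 and 4.52. Its mutant control lay far under the pseudocount of 1 FPKM, so its retained share depends on the pseudocount. RAB18 rose from 20.4 to 1554 FPKM in the wild type and from 2.85 to 70.3 FPKM in the mutant, responses of 6.19 and 4.21. COR15A (AT2G42540), a chloroplast protein of cold acclimation, rose from 14.7 to 1192 FPKM in the wild type and from 2.58 to 60.4 FPKM in the mutant. All 3 began lower in control mutants than in control wild type and stayed far below the wild type under ABA, so a large ratio was kept while the level was not reached. RD29B (AT5G52300), 1.82 to 247 FPKM in the wild type and 0.169 to 6.83 FPKM in the mutant, and KIN1 (AT5G15960), 26.0 to 1259 FPKM in the wild type and 14.4 to 54.5 FPKM in the mutant, were reduced rises of the same shape.

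This shape belonged to the strongest wild-type rises more widely. The median retained share was 0.150 for the 400 wild-type rises with a log2 response from 1 to below 1.5, 0.127 for 166 from 2 to below 3, 0.276 for 48 from 4 to below 6, and 0.505 for the 13 of 6 or more. The last range holds few genes, and 7 of its 13 were kept rises. Its genes also stood lower in control mutants, with a median genotype difference of -1.83 on the log2 scale against -0.12 in the weakest range. The size of the share followed the pseudocount: with 0.1 FPKM the medians of the last 2 ranges were 0.373 and 0.669, and with 5 FPKM they were 0.173 and 0.375. The last range kept the highest median under each of these settings. The ranges were chosen after the data had been seen, and the part of the low control values was not tested.

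**Figure D3:**
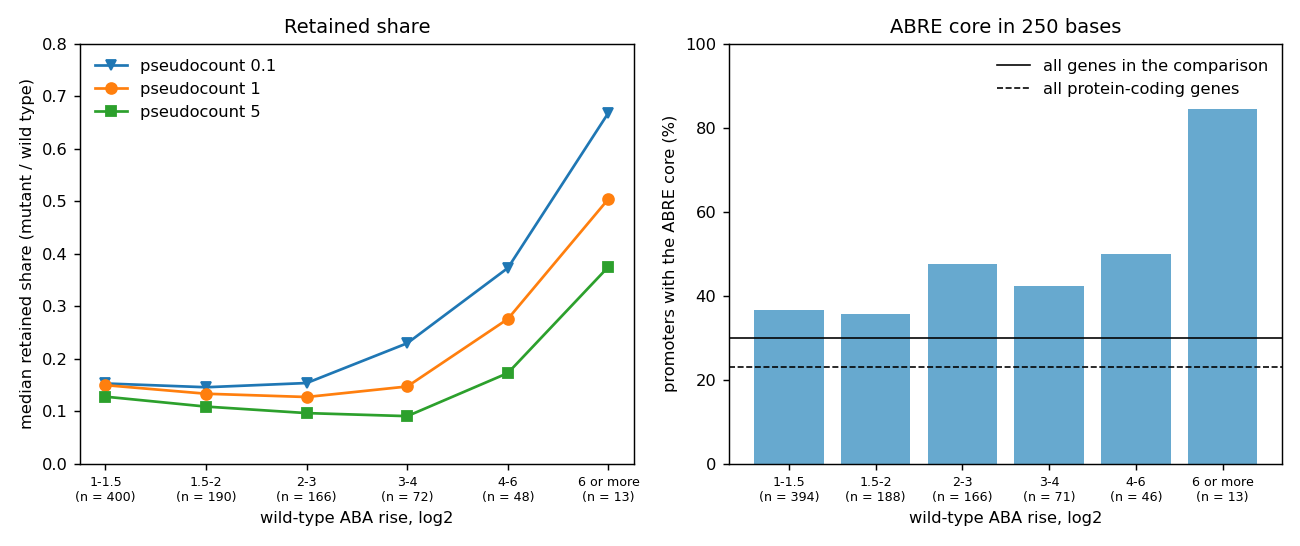
Wild-type rises are grouped on the x axis by their log2 response, with gene numbers in brackets. The left panel gives the median retained share with pseudocounts of 0.1, 1 and 5 FPKM, which reached 0.669, 0.505 and 0.375 in the strongest range, and the right panel the share of promoters holding the ABRE core, 84.6% in that range against lines at 29.9% for the comparison and 22.9% for all protein-coding genes.

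Among the strongest rises, SWEET15 (AT5G13170), a sucrose transporter of senescing leaves, rose from 0.981 to 529 FPKM in the wild type and from 0.357 to 17.2 FPKM in the mutant, a reduced rise. LTP4 (AT5G59310), a lipid transfer protein of the cell wall, had the highest mutant response of all kept rises, from 2.93 to 2695 FPKM in the wild type and from 0.0498 to 67.5 FPKM in the mutant. AT2G37870, annotated in the same superfamily, rose from 6.57 to 1376 FPKM in the wild type and from 0.174 to 36.5 FPKM in the mutant. Both stood far under the pseudocount of 1 FPKM in control mutants, so their retained shares depend on the pseudocount. In the authors' deposited table neither LTP4 nor AT2G37870 was called in the duodecuple line. LTP3 (AT5G59320), the neighbouring paralog of LTP4, rose from 7.46 to 1251 FPKM in the wild type and from 2.71 to 38.7 FPKM in the mutant, and reads shared by such paralogs may have been divided between them. The remaining genes of wax, cutin and lipid transfer, 8 of the 10 members, were lost rises, where 67.04% of all wild-type rises were lost. LTP2 (AT2G38530) rose from 52.2 to 590.3 FPKM in the wild type, against 71.8 to 84.3 FPKM in the mutant, and CER1 (AT1G02205), an enzyme of wax alkane synthesis, from 13.5 to 55.5 FPKM in the wild type, against 9.89 to 11.2 FPKM in the mutant.

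Heat shock genes gave more kept rises than any other list. Of 15 members 13 rose in the wild type, against 19.3% of all genes, and 10 in the mutant, against 2.39%. Of the 13 rises 2 were lost, 6 reduced and 5 kept. HSFA2 (AT2G26150), a heat shock transcription factor, rose from 2.93 to 83.4 FPKM in the wild type and from 1.89 to 26.7 FPKM in the mutant, a retained share of 0.736. HSP90.1 (AT5G52640) rose from 14.3 to 185 FPKM in the wild type and from 9.07 to 53.2 FPKM in the mutant. HSP101 (AT1G74310), a chaperone that dissolves protein aggregates, rose from 6.87 to 72.6 FPKM in the wild type and from 5.19 to 24.2 FPKM in the mutant. In these 3 genes the control values lay within 2-fold of each other, unlike those of LEA7 and LTP4. The small heat shock protein HSP17.4 (AT3G46230) rose from 3.98 to 285 FPKM in the wild type and from 1.28 to 9.69 FPKM in the mutant and was reduced. HSFA6B (AT3G22830) was lost, with 0.891 to 17.7 FPKM in the wild type and 0.997 to 1.81 FPKM in the mutant, and HSFA3 (AT5G03720) was a lost fall, with 4.90 to 0.770 FPKM in the wild type and 5.33 to 7.21 FPKM in the mutant. The list does not hold the heat shock factor HSFA6A (AT5G43840), which was a lost rise. It stood at 0 and 16.3 FPKM in the wild type and at 0.0322 and 0.0725 FPKM in the mutant.

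Other kept rises were scattered over functions. The following were picked after their values had been seen. SLAH3 (AT5G24030), an anion channel, rose from 65.2 to 176 FPKM in the wild type and from 23.9 to 73.2 FPKM in the mutant, and DREB2A (AT5G05410), a factor of dehydration and heat, from 5.76 to 16.6 FPKM in the wild type and from 5.04 to 12.5 FPKM in the mutant. ORE1 (AT5G39610), a NAC factor of leaf senescence, rose from 13.4 to 36.9 FPKM in the wild type and from 9.08 to 24.6 FPKM in the mutant, a retained share of 0.965. AT2G25450, annotated as an oxygenase, kept its ratio on a far lower level, with 341 to 1269 FPKM in the wild type and 6.29 to 41.3 FPKM in the mutant. The mutant response exceeded that of the wild type in 4 of the 75 kept rises and in 11 of the 63 kept falls.

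Rises of osmolyte genes were mostly reduced. Of 6 genes of proline and galactinol synthesis, 4 rose in the wild type, against 19.3% of all genes. Of these rises 3 were reduced, against 24.2% of all rises, and 1 was lost. P5CS1 (AT2G39800), the limiting enzyme of proline synthesis under stress, rose from 37.0 to 226 FPKM in the wild type and from 13.8 to 32.8 FPKM in the mutant. GOLS1 (AT2G47180), a galactinol synthase, rose from 11.3 to 72.4 FPKM in the wild type, against 7.68 to 13.8 FPKM in the mutant. P5CS1 also stood lower in control mutants, at 13.8 against 37.0 FPKM.

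Flavonoid and anthocyanin genes lost every rise, 9 of 9, against 67.04% of all rises, and here the mutant began higher. The median genotype difference in control seedlings was 1.31 on the log2 scale over 13 members, against -0.06 over all genes. DFR (AT5G42800), an enzyme of anthocyanin synthesis, rose from 36.1 to 238 FPKM in the wild type, against 103 to 82.3 FPKM in the mutant. TT19 (AT5G17220), which is needed to bring anthocyanin into the vacuole, rose from 29.7 to 157 FPKM in the wild type, against 84.6 to 77.6 FPKM in the mutant. For both the mutant control lay between the wild-type control and the ABA-treated wild type. Among the phosphate starvation genes, 4 of 11 rose, against 19.3% of all genes, all 4 rises were lost, and the median control difference of that list was 2.403. PAP17 (AT3G17790), an acid phosphatase, rose from 12.3 to 81.7 FPKM in the wild type and stood at 66.2 and 75.3 FPKM in the mutant, and SPX1 (AT5G20150) stood at 9.17 and 9.91 FPKM in the wild type and at 139 and 132 FPKM in the mutant. The part of these control levels in the lost rises was not tested.

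Of 11 senescence genes 6 rose in the wild type, against 19.3% of all genes. Of these 6 rises 3 were lost, against 67.04% of all rises, 2 were reduced and 1, ORE1, was kept. SAG13 (AT2G29350), a senescence marker, was a lost rise, with 5.84 to 128 FPKM in the wild type and 1.86 to 2.47 FPKM in the mutant. PR1 (AT2G14610), a marker of salicylate defence, rose from 3.65 to 35.9 FPKM in the wild type and stood at 11.8 and 11.7 FPKM in the mutant. The jasmonate list held 1 rise and 3 falls in the wild type. The rise was VSP2 (AT5G24770), a jasmonate-responsive storage protein, which rose from 178 to 411 FPKM in the wild type and stood at 19.4 and 20.5 FPKM in the mutant. The falls were VSP1, which was lost, and AOC2 and PDF1.2, which were reduced. PDF1.2 (AT5G44420), a defensin of jasmonate and ethylene defence, fell from 91.3 to 0.434 FPKM in the wild type and from 412 to 142 FPKM in the mutant, a response difference of 4.48, and was higher in both mutant groups than in wild type under the same treatment. In the authors' deposited table its fall was called in the mutant and not in the wild type. Of 15 jasmonate genes 11, of 11 salicylate and camalexin genes 8, and of 7 auxin genes 4 responded in neither genotype, against 58.1% of all genes.

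**Figure D4:**
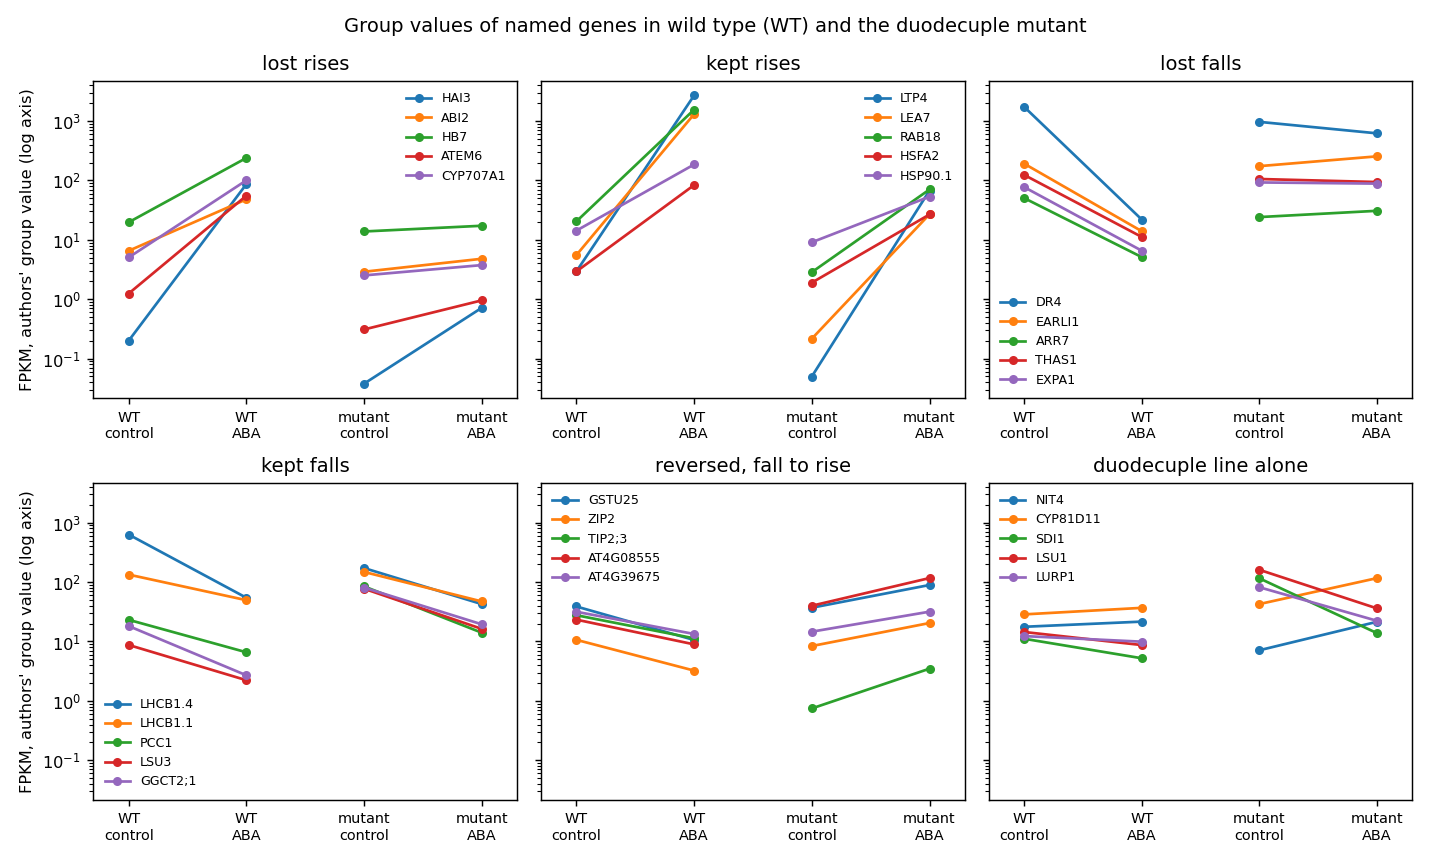
Each line joins the control and the ABA value of a gene within a genotype, in FPKM on a log axis, with wild type (WT) at the left and the duodecuple mutant at the right of each of 6 panels. Lost responses show a steeper slope in the wild type than in the mutant, where lines such as those of HB7 and EXPA1 are nearly flat. The axis has no pseudocount, so HAI3, ATEM6 and ABI2 still slope upward in the mutant, HAI3 from 0.0378 to 0.718 FPKM. Kept rises such as LEA7 rise in both genotypes but from a lower start in the mutant, and GSTU25 and the other reversed genes slope down in the wild type and up in the mutant.

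Among the falls the largest loss was that of DR4, annotated as drought-repressed, from 1741 to 21.9 FPKM in the wild type, against 967 to 619.7 FPKM in the mutant, a response difference of 5.61. AT3G16530, a lectin family gene, fell from 215 to 5.39 FPKM in the wild type, against 448 to 272 FPKM in the mutant. EARLI1 (AT4G12480), of the lipid transfer superfamily, fell from 192 to 14.0 FPKM in the wild type, against 174 to 254 FPKM in the mutant, where it moved slightly up. By annotation, the lipid transfer and 2S albumin-like superfamily as a whole held 47 genes in the comparison, with 22 falls in the wild type, of which 21 were lost, against 69.7% of all falls, and 11 rises, of which 4 were lost, against 67.04% of all rises. In each of DR4, AT3G16530 and EARLI1 the ABA-treated wild type was low and the other 3 groups were high.

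Type-A response regulators, early targets and feedback inhibitors of cytokinin signalling, gave 6 lost falls among 8 members, against 21.7% falls over all genes. ARR7 (AT1G19050) fell from 50.5 to 5.11 FPKM in the wild type, against 24.1 to 30.8 FPKM in the mutant. ARR5 (AT3G48100) fell from 19.5 to 3.52 FPKM in the wild type, against 14.2 to 15.4 FPKM in the mutant. ARR6 (AT5G62920) behaved likewise, with 32.7 to 8.17 FPKM in the wild type and 12.9 to 18.18 FPKM in the mutant. In all 3 the mutant control was lower than the wild-type control, and the mutant value under ABA was above its own control by less than 2-fold.

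The thalianol genes, a cluster for root triterpenes, were lost falls. THAS1 (AT5G48010), thalianol synthase, fell from 124 to 11.2 FPKM in the wild type, against 106 to 93.9 FPKM in the mutant. THAH (AT5G48000), the hydroxylase of the cluster, fell from 152 to 13.1 FPKM in the wild type, against 156 to 126 FPKM in the mutant, and THAD (AT5G47990) from 181 to 21.2 FPKM in the wild type, against 147 to 139.8 FPKM in the mutant. Of the marneral cluster, MRO was a lost fall, CYP705A12 a kept fall at low level in the mutant, and MRN1 (AT5G42600) stood at 18.4 and 21.8 FPKM in the wild type and at 0.351 and 0.295 FPKM in the mutant.

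Of all wild-type falls 69.7% were lost and 23.4% reduced. Of 21 expansin, XTH and cellulose synthase genes 8 fell in the wild type, against 21.7% of all genes, and all 8 falls were lost. EXPA1 (AT1G69530), an expansin that loosens walls, fell from 77.4 to 6.55 FPKM in the wild type, against 92.4 to 88.3 FPKM in the mutant. XTH20 (AT5G48070), an enzyme that recuts xyloglucan, fell from 18.9 to 0.299 FPKM in the wild type, against 26.3 to 13.4 FPKM in the mutant. Of 14 genes of mitosis and division 11 fell in the wild type, of which 3 were lost and 8 reduced. CYCB1;3 (AT3G11520), a mitotic cyclin, fell from 4.63 to 1.06 FPKM in the wild type, against 7.06 to 4.96 FPKM in the mutant, and KNOLLE (AT1G08560), the syntaxin of cytokinesis, from 27.3 to 10.02 FPKM in the wild type, against 39.3 to 30.5 FPKM in the mutant. All 14 responded downward in the mutant, from -0.25 to -0.49, and none by 2-fold. Division genes stood higher in control mutants, with a median genotype difference of 0.53.

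Auxin-responsive SAUR genes, small proteins of cell expansion, of which the auxin list holds only some, were taken from the annotation after the values had been seen. Of 25 members in the comparison 14 fell in the wild type, against 21.7% of all genes, and all 14 falls were lost, against 69.7% of all falls. The other wild-type responses were 5 rises, 3 lost and 2 reduced, and the median response of the family was -1.07 in wild-type and 0.17 in mutant seedlings. SAUR63 (AT1G29440) fell from 9.40 to 3.21 FPKM in the wild type, against 6.17 to 6.28 FPKM in the mutant, and SAUR68 (AT1G29510) from 9.73 to 3.47 FPKM in the wild type, against 6.96 to 7.68 FPKM in the mutant. AT4G38840 fell from 91.4 to 21.0 FPKM in the wild type, against 71.4 to 79.7 FPKM in the mutant. Each of these 3 fell in the wild type and moved upward by less than 2-fold in the mutant. SAUR genes lie in tandem groups of similar copies, so reads may have been divided among neighbours. Other large families by annotation moved both ways. Peroxidases, 38 genes, had 16 falls, 14 of them lost, and 8 rises, 5 of them lost. The 26 bHLH factors had 9 falls, all lost, and 3 rises, 2 of them lost. Major facilitator transporters, 42 genes, had 12 rises, 10 of them lost, and 7 falls, 6 of them lost. Over the whole comparison 69.7% of falls and 67.04% of rises were lost, and no family was tested against these shares.

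Nitrate genes gave 4 falls among 8 members, all lost, against 21.7% falls and 69.7% of falls lost over all genes. NIA1 (AT1G77760), a nitrate reductase, fell from 201 to 73.5 FPKM in the wild type, against 213 to 176 FPKM in the mutant. LBD38 (AT3G49940), a repressor of nitrate genes, fell from 101 to 33.9 FPKM in the wild type, against 105 to 98.3 FPKM in the mutant, and BT1 (AT5G63160) from 327 to 39.1 FPKM in the wild type, against 270.3 to 225 FPKM in the mutant. NRT3.1 (AT5G50200), the partner of high-affinity nitrate transporters, was the lost rise of the list, with 8.68 to 47.6 FPKM in the wild type and 8.25 to 8.81 FPKM in the mutant.

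Among the lists, photosynthesis held the most kept falls. Of 27 photosynthesis genes 9 fell in the wild type, against 21.7% of all genes, and 7 of these falls were kept, against 6.33% of all falls. All 7 were genes of the LHCB and LHCA proteins, which bind chlorophyll in the light-harvesting antenna. LHCB1.4 (AT2G34430) fell from 631 to 54.4 FPKM in the wild type and from 172 to 42.6 FPKM in the mutant. LHCB1.1 (AT1G29920) fell from 134 to 49.5 FPKM in the wild type and from 148 to 47.2 FPKM in the mutant, and LHCB1.2 (AT1G29910) from 266 to 88.4 FPKM in the wild type and from 315 to 118 FPKM in the mutant. LHCB2.2 (AT2G05070) fell in the mutant alone, with 31.1 to 32.6 FPKM in the wild type and 47.1 to 16.9 FPKM in the mutant. LHCB3 (AT5G54270) was put in the same class, with 266 to 143 FPKM in the wild type and 352 to 155 FPKM in the mutant. It moved downward in the wild type too, by less than the 2-fold limit. The LHCB1 genes are near-identical copies, so the division of reads among them is uncertain. The Rubisco small subunit gene RBCS3B (AT5G38410) differed from the antenna genes, with a lost fall from 4845 to 2030.0 FPKM in the wild type and 5091 to 5871 FPKM in the mutant. LHCB2.3 (AT3G27690), a kept fall with 36.0 to 17.35 FPKM in the wild type and 54.4 to 14.5 FPKM in the mutant, left this class under rescaling and under a pseudocount of 5 FPKM.

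Iron shortage genes fell in 4 of 7 members, against 21.7% of all genes, with 2 falls lost, 1 reduced and 1 kept. F6'H1 (AT3G13610), an enzyme of coumarin synthesis for iron uptake, fell from 10.11 to 1.06 FPKM in the wild type, against 26.8 to 20.6 FPKM in the mutant. The kept fall was bHLH100 (AT2G41240), a factor of the iron response, with 2.52 to 0.0423 FPKM in the wild type and 9.49 to 2.24 FPKM in the mutant. Its ABA-treated wild-type value lay far under the pseudocount of 1 FPKM, so its class depends on the pseudocount. In the authors' deposited table its fall was called in the mutant and not in the wild type. Both F6'H1 and bHLH100 began higher in control mutants, and the median control difference of the list was 1.17. Of 15 aquaporins 3 fell in the wild type, a share near the 21.7% of all genes, and of these PIP2;4 and NIP5;1 were lost and TIP2;3 reversed. PIP2;4 (AT5G60660), a water channel, fell from 23.2 to 4.76 FPKM in the wild type, against 18.23 to 17.1 FPKM in the mutant. Of 6 clock genes, LHY was a lost rise, CCA1 a reduced rise and LUX a lost fall. CCA1 (AT2G46830), a morning factor of the clock, rose from 2.79 to 20.2 FPKM in the wild type, against 1.38 to 2.68 FPKM in the mutant. Of 6 ethylene genes, ACS7 was a lost rise and ORA59 (AT1G06160), an ethylene and jasmonate response factor, a lost fall with 12.4 to 0.508 FPKM in the wild type and 9.08 to 6.39 FPKM in the mutant. Of 7 glucosinolate genes 4 responded in the wild type, and CYP79F1 (AT1G16410), an enzyme of aliphatic glucosinolate synthesis, kept its rise with 12.6 to 34.1 FPKM in the wild type and 6.99 to 17.65 FPKM in the mutant. Its neighbour CYP79F2 (AT1G16400) was a lost fall, with 10.9 to 4.79 FPKM in the wild type and 21.7 to 22.6 FPKM in the mutant, and reads of this similar pair may have been divided between them. Among 8 root hair genes RHS13 was a kept fall and the others did not respond. The caleosin gene CLO3 (AT2G33380), an oil body protein, was a reduced rise with 11.3 to 385 FPKM in the wild type and 2.26 to 10.8 FPKM in the mutant.

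Sulfur shortage genes fell in more members in the mutant than in the wild type. Of 10 members 8 fell in the duodecuple line, against 1.44% of all genes, and 2 in the wild type, against 21.7%, so 6 fell in the mutant alone. SDI1 (AT5G48850), a repressor of glucosinolate synthesis under low sulfur, went from 11.1 to 5.22 FPKM in the wild type and from 116 to 13.8 FPKM in the mutant. Its wild-type response of -0.96 was just under the limit in size and was called in the authors' deposited table. LSU1 (AT3G49580) went from 14.5 to 8.71 FPKM in the wild type and from 161 to 36.0 FPKM in the mutant. GGCT2;1 (AT5G26220), an enzyme of glutathione breakdown, fell in both, from 18.16 to 2.69 FPKM in the wild type and from 80.7 to 19.4 FPKM in the mutant. In each the mutant control was the highest of the 4 groups, and the ABA-treated mutant came down toward the wild-type values. The median genotype difference of the list in control seedlings was 2.33, and its part in the falls was not tested.

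The classes of the mutant alone rest on the 2-fold limit. Of the 25 genes that fell in the mutant alone, 21 moved downward in the wild type by less than 2-fold, and 5 were called there in the authors' deposited table. Of these 25 genes, 17 were at least 2-fold higher in control mutants than in control wild type, where 4.22% of all genes were. LURP1 (AT2G14560), a gene of pathogen response, went from 12.3 to 9.92 FPKM in the wild type and from 81.9 to 22.3 FPKM in the mutant. PCC1 (AT3G22231), a kept fall of the salicylate list, fell from 23.2 to 6.58 FPKM in the wild type and from 84.6 to 14.0 FPKM in the mutant. Among the 18 genes that rose in the mutant alone, 6 were 2-fold lower and none 2-fold higher in control mutants, against 3.72% and 4.22% of all genes. NIT4 (AT5G22300), a nitrilase of cyanide detoxification, went from 17.7 to 21.6 FPKM in the wild type and from 7.12 to 21.5 FPKM in the mutant. CYP81D11 (AT3G28740), a cytochrome P450, went from 28.6 to 36.8 FPKM in the wild type and from 42.7 to 117 FPKM in the mutant. UGT74E2 (AT1G05680), a glucosyltransferase of the auxin indole-3-butyric acid, was near the limit in the wild type, with 26.6 to 50.3 FPKM there and 7.56 to 36.1 FPKM in the mutant. In NIT4 and UGT74E2 the control mutant was the lowest of the 4 groups, while in CYP81D11 it was above both wild-type groups. AT2G25510 was listed at 0 in control mutants and at 9.43 FPKM in ABA-treated mutants, against 485 to 276 FPKM in the wild type.

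Reversed responses were few. The 6 genes that fell in the wild type and rose in the mutant were all called in both genotypes in the authors' deposited table. GSTU25, a glutathione transferase, fell from 38.8 to 10.6 FPKM in the wild type, against 37.0 to 89.3 FPKM in the mutant. ZIP2 (AT5G59520), a metal transporter, fell from 10.7 to 3.23 FPKM in the wild type, against 8.38 to 20.5 FPKM in the mutant. AT4G08555 fell from 23.3 to 8.94 FPKM in the wild type, against 40.0 to 117 FPKM in the mutant. For these 3 genes the control groups were within 2-fold of each other and the ABA-treated mutant was the highest of the 4 groups. TIP2;3 (AT5G47450), a tonoplast aquaporin, reversed at low level, with 27.7 to 11.3 FPKM in the wild type and 0.745 to 3.48 FPKM in the mutant. AT4G15660, of the thioredoxin superfamily, fell from 8.66 to 0.503 FPKM in the wild type, against 2.68 to 6.62 FPKM in the mutant, and AT4G39675 from 31.7 to 13.4 FPKM in the wild type, against 14.6 to 31.8 FPKM in the mutant. In TIP2;3 and AT4G15660 both mutant values lay under the wild-type control. With a pseudocount of 5 FPKM the count of such reversals was 2.

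The 3 genes of the opposite reversal rest on values listed at 0. The snRNA gene U12 (AT1G61275) was listed at 0 in the wild-type control and in the ABA-treated mutant, with 12.7 FPKM in the ABA-treated wild type and 5.48 FPKM in control mutants. MIR159b (AT1G18075), a microRNA gene, was listed at 0 in the same groups, with 2.67 and 6.22 FPKM in the others. AT4G31354 was listed at 0 in the same groups too, with 7.11 and 1.32 FPKM. In the authors' deposited table none of the 3 was called in both genotypes, and 2 of them are shorter than 300 bases.

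**Figure D5:**
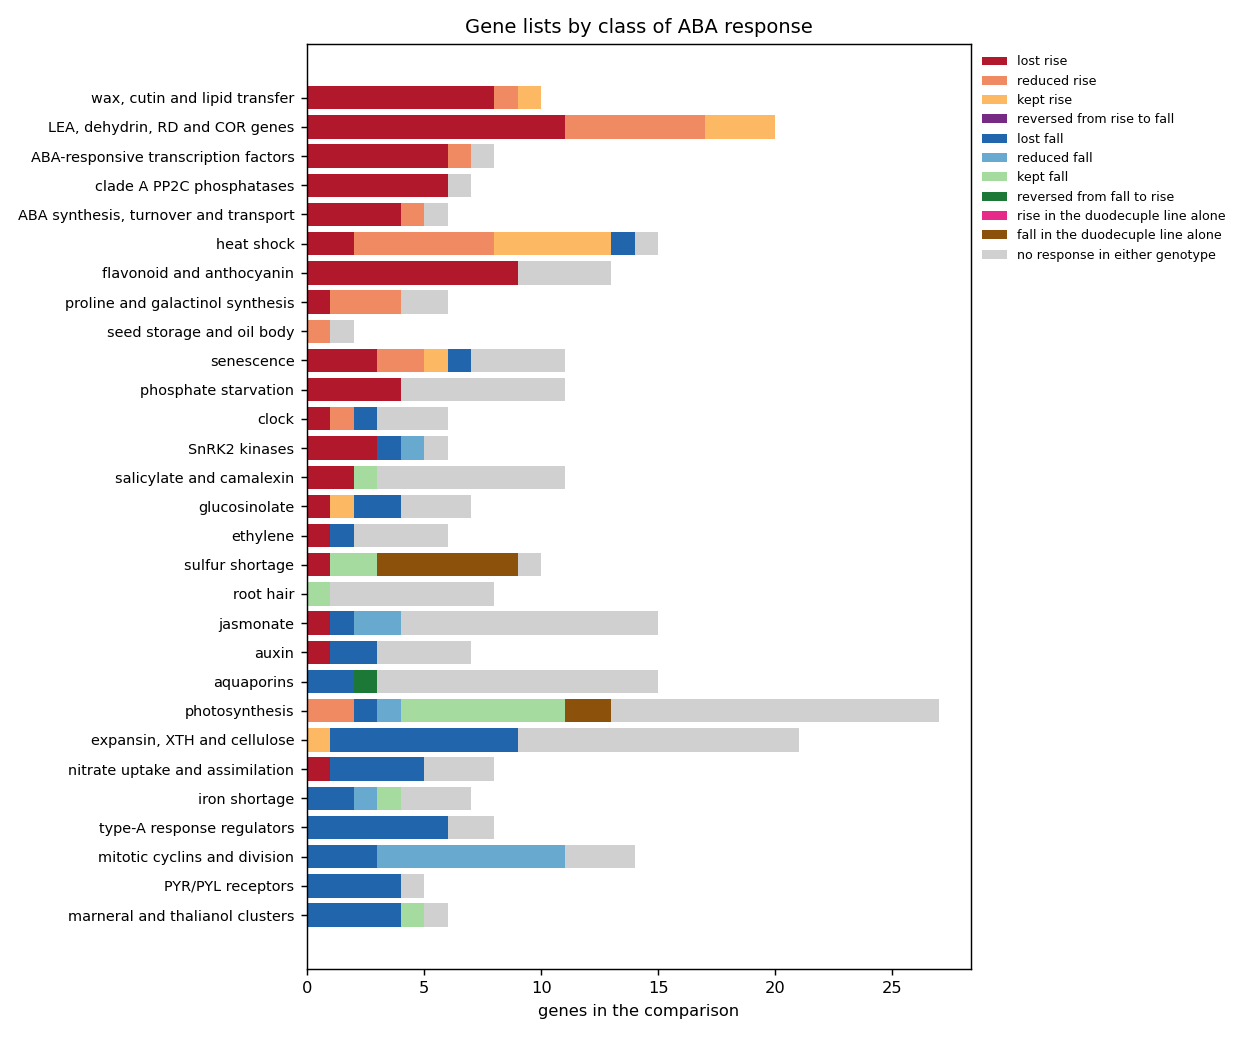
Each bar divides the members of a gene list found in the comparison by their class of ABA response, with the number of genes on the x axis and lists ordered by their balance of wild-type rises and falls. Red and blue, the lost rises and lost falls, fill most of the phosphatase and type-A regulator bars, while kept classes show in the heat shock bar (5 kept rises), the photosynthesis bar (7 kept falls) and, as falls of the mutant alone, the sulfur bar (6 genes).

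Sequence before the start was not used to form the classes. The ABRE core ACGTG, on either strand, was present in 41.9% of the promoters of lost rises (247 of 590), 38.6% of reduced rises and 34.7% of kept rises, against 29.9% of the comparison. It was present in 24.9% of lost falls, 30.5% of reduced falls, 44.4% of kept falls (28 of 63) and 27.2% of genes with no response. The longer form ACGTGTC, which contains the core, was present in 12.5% of lost rises, 9.33% of kept rises and 1.45% of lost falls, against 5.56% of the comparison. By strength of the wild-type rise, the core was present in 36.5% of promoters in the weakest range and in 11 of 13 (84.6%) in the strongest. A heat shock type element, GAANNTTC, was present in 12% of kept rises and 9.15% of lost rises, against 9.40% of the comparison. TTGAC, the core bound by WRKY factors, was present in 46.2% of the comparison and in 45.4% of lost rises. Among the LEA, dehydrin, RD and COR genes 15 of 20 held the core, and among the type-A regulators 1 of 8. A match is a description of letters within 250 bases and not a bound site.

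Mannitol values, which the classes did not use, stand beside those of ABA with the same control groups, so the pairs of responses share values and were not related to each other. Lost rises of ABA had a median mannitol response of 1.70 for wild-type and 0.56 for duodecuple seedlings, kept rises 1.18 and 0.82, lost falls -1.08 and -0.68, and kept falls -0.49 and -0.51. Over all genes in the comparison the medians were -0.32 and -0.28. HAI3 stood at 19.4 FPKM under mannitol in the wild type and at 0.110 FPKM in the mutant, and SAG13 at 163 and 92.9 FPKM. SAG13 was near its control level under ABA and far above it under mannitol in the mutant.

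The labelled seedling tissue was checked with marker genes. The 5 shoot markers that name a single locus were all listed, with RBCS1A at 11770 FPKM in control wild type and 10869 FPKM in control mutants, and RBCS3B, LHCB1.1 and LHCB1.2 likewise within 2-fold between genotypes. The fifth, LHCB1.4, stood lower in control mutants, at 172 against 631 FPKM. Of 7 root markers 5 were listed. CASP1, EXPA7, RHD6 and COBL9 were higher in control mutants by less than 2-fold, with CASP1 at 28.0 FPKM in control wild type and 36.5 FPKM in control mutants. TIP2;3 was far lower in control mutants, at 0.745 against 27.7 FPKM. The embryo markers CRA1 and CRC were low in control wild type, at 4.73 and 0.912 FPKM, and lower in control mutants, at 0.105 and 0.0720 FPKM. The guard cell marker MYB60 stood at 13.2 FPKM in control wild type and 15.1 FPKM in control mutants.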

How the data were processed

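RNA was sequenced from whole seedlings, 3 samples for each of 6 groups, which the sample labels define. Reads were processed with TopHat, Cufflinks and Cuffdiff on the TAIR10 genome, per the submitters' processing notes; versions and settings are not given in the sources used here. The deposited table holds 1 expression value per group, read here as FPKM, the unit Cufflinks writes, since its header names none. Beside these the authors gave log2 ratios of treatment to control, with no pseudocount, and their own calls by a rule that is not stated. The 6740 genes of the table each carry at least 1 call, so genes without a call were not analysed here. Values and depths per library are not analysed here, so p-values, replicate errors and intervals could not be computed, and the planned limma interaction of genotype and ABA could not be fitted.

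From the group values, log2 responses with a pseudocount of 1 FPKM were computed for genes of at least 5 FPKM in any of the 4 groups, which understates the change of low genes. Classes followed the retained share, with limits of 0.25 and 0.5 and a 2-fold response. The members and the 29 gene lists (523 entries, 519 loci, 346 in the table and 292 in the comparison) were chosen with earlier results of these data known. Named genes were, among genes of the comparison, the 10 largest response differences of lost rises and of lost falls, the 8 largest mutant responses of each kept class and the 6 largest differences of each reversed class. The 6 largest responses of each class of the mutant alone, the 5 kept genes that gained most in the mutant, and from each list up to 4 members by response difference and the 1 with the highest retained share were added. Other single genes, the strength ranges, the annotation families (at least 15 genes), the joining of overlapping motif matches and the promoters shown were chosen after the values had been seen. Identifiers of 6726 genes matched the RefSeq annotation of TAIR10.1, from which promoters of 250 bases were read on the strand of the gene and searched for 10 motifs. The class counts were checked on simulated data. Python 3.11.15, numpy 2.4.6, pandas 2.3.3 and matplotlib 3.10.9 were used.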

Additional observations from a re-analysis of the deposited data

How the results depend on the processing

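No paired analysis was possible because the deposited table gives 1 value per group with no replicate number, and leaving out single samples was not run for the same reason. Depth per library is unknown, so values near 0 FPKM have no known precision. Of 136 summary values recomputed under other settings, 86 stayed within 1.5 times the reported count or within 0.05 of the reported median, and 50 moved further. Dropping the minimum of 5 FPKM, and rescaling the groups, moved no class count that far. A count cannot change sign, and 0 of the median retained shares did. The share of lost responses lay between 61.7% and 83.2% of the wild-type rises and between 60.7% and 88.8% of the falls over all settings.

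With a pseudocount of 0.1 FPKM, kept rises numbered 114 and reversals from rise to fall 8. With 5 FPKM, the response difference was 1 or above in 418 genes, and there were 136 reduced rises, 41 kept rises, 1 reversal from rise to fall, 341 lost falls, 113 reduced falls, 33 kept falls and 2 reversals from fall to rise. With a minimum of 20 FPKM, 430 genes had a difference of 1 or above, and there were 390 lost rises, 0 reversals from rise to fall, 348 lost falls, 92 reduced falls, 30 kept falls and 13 falls in the duodecuple line alone. With a 1.5-fold limit, 1189 genes were at or below the negative limit of the difference and 1461 at or above the positive one, with 136 kept rises, 19 reversals from rise to fall, 375 reduced falls, 153 kept falls, 39 reversals from fall to rise, and 56 rises and 49 falls in the duodecuple line alone. With a 4-fold limit the differences numbered 223 and 191, with 201 lost, 76 reduced and 21 kept rises, 1 reversal from rise to fall, 181 lost, 37 reduced and 9 kept falls, 0 reversals from fall to rise, and 4 rises and 6 falls in the duodecuple line alone. Requiring the authors' call left 0 reversals from rise to fall. With lost under 0.4 and kept from 0.6, there were 102 reduced and 44 kept rises and 68 reduced and 38 kept falls. The cause of these shifts was not tested.

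For the strength ranges, chosen after the data had been seen, the median retained share was 0.0904 after rescaling in the range from 1 to below 1.5. It was 0.230 with a pseudocount of 0.1 FPKM and 0.0905 with 5 FPKM from 3 to below 4, 0.373 and 0.173 from 4 to below 6, and 0.669 and 0.375 at 6 or more. For 176 named genes, 443 of 528 recomputed classes stayed and 85 changed, 23 with a pseudocount of 0.1 FPKM, 45 with 5 FPKM and 17 after rescaling. No response difference of 1 or more in size changed sign, and smaller differences were not checked for this.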
